A study of Schizosaccharomyces pombe with 4 samples.

Results

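RNA of a fission yeast (Schizosaccharomyces pombe) strain that lacks ssu72 was set directly against RNA of a strain that lacks swd22, with no wild-type sample in between. Both gene products belong to CPF, the factor that cleaves and polyadenylates transcripts, and the members of the comparison are 2 of the 4 libraries of the series, 1 library a side. They were chosen by the genotype in the labels, ssu72[delta] and swd22[delta]. Both strains grew for 3 days at 18 °C in YEA, a rich medium, in mid-log phase, and no other allele, marker or mating type is given in the labels. The other libraries came from a clr4 deletion (Clr4 methylates histone H3 in heterochromatin) and from wild type. The clr4 library and an unnamed reference library, to which all deposited ratios refer, are quoted below only to place a value.

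CPF cuts the nascent transcript at its 3' end and adds the poly(A) tail, and it carries phosphatases that act on RNA polymerase II and its partners. Ssu72 removes phosphates from the repeated tail (CTD) of the polymerase. Swd22 is a WD-repeat protein that holds the PP1-type phosphatase Dis2 and the regulator Ppn1 in the complex. The comparison separates loss of the CTD phosphatase itself from loss of the subunit that anchors the other phosphatase.

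Reads over annotated features, recovered as whole numbers from the deposited ratios and p-values, summed to 24005654 in the ssu72 library and 19630560 in the swd22 library. A feature at the same level in both therefore has 1.22 times more reads in the ssu72 library. The clr4 and reference libraries held 22838898 and 22652527 reads, and reads quoted from them below are not scaled. Features of type mRNA took 93.2% and 93.5% of the reads, SPNCRNA noncoding RNAs 1.09% in both, antisense features 0.907% and 0.812%, and ribosomal RNA 0.096% and 0.238%, in the order ssu72, swd22. Differences are given as log2 of ssu72 over swd22 on the scale of the deposited ratios, and brackets hold exact 95% counting intervals. Intervals cover counting error only, and with 1 library a side no difference has a replicate check or a test.

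Most coding RNAs lay close together in the 2 deletions. Of 6410 features with at least 10 reads in the higher library, 81 (1.26%) were at least 2-fold higher in the ssu72 library and 84 (1.31%) at least 2-fold lower, 2.57% in all. Among the 5040 coding features 24 (0.476%) were higher and 55 (1.09%) lower by that measure, 1.57% in all. The median coding difference was -0.06 with quartiles of -0.16 and 0.06, and 87.8% of coding features lay within 1.25-fold. The higher group was led by genes of iron and heme uptake and by a telomere-linked helicase. The lower group was led, after ssu72 itself, by a subtelomeric trio on chromosome I, the flocculin genes pfl8 and pfl7 and the meiotic regulator gene mei2.

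**Figure D1:**
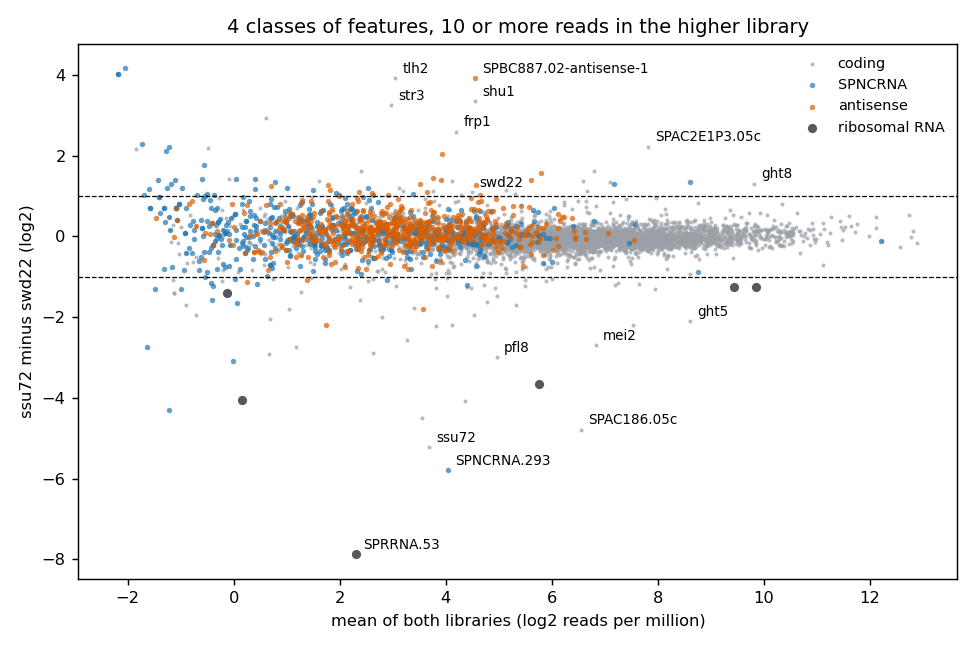
Difference between the ssu72 and swd22 libraries (vertical axis, log2) against the mean level of both (horizontal axis, log2 CPM, reads scaled to library size) for coding, SPNCRNA, antisense and ribosomal RNA features with at least 10 reads in the higher library. Dashed lines mark 2-fold. Most coding features lie near 0, shu1, str3, frp1 and tlh2 stand above, and mei2, pfl8, SPAC186.05c and all 6 ribosomal RNA features stand below.

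The labels were checked at both deleted genes. The ssu72 feature held 16 reads in the ssu72 library and 488 in the swd22 library, a difference of -5.22 (-6.04 to -4.51). The swd22 feature held 735 reads in the ssu72 library and 281 in the swd22 library, a difference of 1.10 (0.90 to 1.30). So reads over ssu72 were nearly absent from the library labelled ssu72[delta], while reads over swd22 were lower but well above 0 in the library labelled swd22[delta]. Which part of swd22 was removed is not given in the labels, and whether those reads came from sequence left at the locus was not tested. The antisense feature across swd22 also stood higher in the ssu72 library, with 169 against 64 reads, a difference of 1.11 (0.69 to 1.55).

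Features beside the deleted genes differed as well. Next to ssu72 on chromosome I, SPNCRNA.893 held 4927 reads in the ssu72 library and 1642 in the swd22 library (1.29, 1.21 to 1.38). Beyond it rpl2301, oar2 and nsk1 lay at 0.53, 0.44 and 0.35, all under 2-fold. The gene on the other side of ssu72, spa2, held 2801 and 1251 reads (0.87, 0.78 to 0.97), while frs2 and hos2 farther along differed by 0.17 and -0.08. Near swd22 the antisense feature inside bst1 was lower in the ssu72 library, with 128 against 361 reads (-1.79, -2.09 to -1.49), beside 53 in the clr4 library and 19 in the reference library. The bst1 sense feature held 2201 and 2203 reads, a difference of -0.29. The coding genes directly beside swd22, SPAC824.03c and vps16, lay at -0.54 and -0.25, under 2-fold. A neighbour of a deleted gene cannot be told apart from a target of the deletion with these libraries.

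The other members of the CPF phosphatase module were level between the libraries. Dis2, the PP1-type phosphatase, had 6072 and 5184 reads (-0.06, -0.12 to -0.01), and ppn1 had 3286 and 2516 (0.09, 0.02 to 0.17). Of 14 genes on a list of other CPF and cleavage factors none was 2-fold apart, against 1.57% of all coding features. They ranged from -0.38 to 0.31 with a median of -0.09. The list holds clp1 (-0.31), which is annotated as a Cdc14-related protein phosphatase and not as a cleavage factor. Of 12 termination and CTD factor genes none was 2-fold apart, with a range of -0.62 to 0.18.

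Genes that take up iron and heme gave the highest list median among the gene lists of more than 4 measured members. Their list also holds regulators and siderophore synthesis genes. Of 14 measured members 5 were at least 2-fold higher in the ssu72 library and 1 was lower, against 0.476% and 1.09% of all coding features, and the list median was 0.46. The cell-surface heme-binding protein gene shu1 had 1024 reads in the ssu72 library and 82 in the swd22 library, 10.2-fold higher (3.35, 3.03 to 3.69). It had 54 reads in the clr4 library and 2 in the reference library, so the ssu72 library stood above all of these. The neighbouring gene str3, annotated as a siderophore-iron transporter, had 340 and 29 reads (3.26, 2.71 to 3.86), beside 78 and 38 in the clr4 and reference libraries. The ferric-chelate reductase gene frp1 had 754 and 102 reads (2.60, 2.30 to 2.91), beside 214 and 137.

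Some further members of the high-affinity route were higher by smaller amounts. The siderophore transporter gene str1 had 3328 and 1238 reads (1.14, 1.04 to 1.23), and the second reductase gene frp2 had 624 and 252 (1.02, 0.80 to 1.23). The oxidase fio1 and the permease fip1, which form the iron import pair, had 3096 against 1366 and 1298 against 617 reads, differences of 0.89 and 0.78 that stay under 2-fold. Both genes lie head to head on chromosome I. The ABC transporter gene abc3 went the other way with 1004 and 1698 reads (-1.05, -1.16 to -0.94), and at -0.99 after centring on the coding median it falls under 2-fold. The regulators were level: fep1, the GATA-type repressor of iron uptake genes, differed by -0.02 (-0.07 to 0.04) and php4, which represses iron-using genes, by 0.13 (0.00 to 0.25). The siderophore synthesis genes sib1 and sib2 differed by -0.13 and -0.37. Another siderophore transporter gene, str2, was level with 2618 and 2010 reads (0.09, 0.01 to 0.18), and the iron and manganese transporter gene pcl1 lay at -0.26.

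Some genes of sexual differentiation were lower in the ssu72 library. These genes are switched on by the transcription factor Ste11 when nutrients run out, and they encode the pheromone pathway and the meiotic regulator Mei2. Of 25 measured regulators and signalling genes 4 (16.0%) were at least 2-fold lower in the ssu72 library and none was higher, against 1.09% and 0.476% of all coding features. Most members were near level: 15 of 25 lay within 1.25-fold, and the list median was -0.16 against -0.06 for coding features. The RNA-binding protein gene mei2 had 726 reads in the ssu72 library and 3858 in the swd22 library (-2.70, -2.82 to -2.59). The clr4 library had 1433 mei2 reads and the reference library 1386, so the swd22 library was the highest of the 4. The regulator of G-protein signalling gene rgs1 had 321 and 810 reads (-1.63, -1.82 to -1.44). The pheromone MAP kinase gene spk1 had 428 and 847 (-1.28, -1.45 to -1.11).

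The ste11 gene itself had 2134 reads in the ssu72 library and 4001 in the swd22 library (-1.20, -1.27 to -1.12), beside 4049 in the clr4 library and 1847 in the reference library. The G-protein subunit gene gpa1, the adaptor gene ste4 and the exchange factor gene ste6 lay at -0.92, -0.90 and -0.76, under 2-fold. Upstream kinases were closer to 0, with byr1 at -0.33 and byr2 at 0.07. The inhibitor kinase gene pat1 lay at -0.39, and the protein kinase A genes pka1 and cgs1 at -0.16 and -0.09. Genes of both mating types held reads in both libraries. Of 7 M-cell genes only mfm2, a precursor of the M-factor pheromone, was 2-fold apart, with 645 and 1232 reads (-1.22, -1.36 to -1.09). That is 14.3% of the list, against 1.09% lower among all coding features, and the list median was -0.83. Of 5 P-cell genes only map1, the MADS-box regulator of P-cell genes, was 2-fold apart, with 217 and 369 reads (-1.06, -1.30 to -0.81). Map1 falls just under 2-fold after centring on the coding median. The P-factor gene map2 lay at 0.35. Both groups hold few genes. In bulk RNA, fewer cells of a type and less RNA per cell cannot be told apart.

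**Figure D2:**
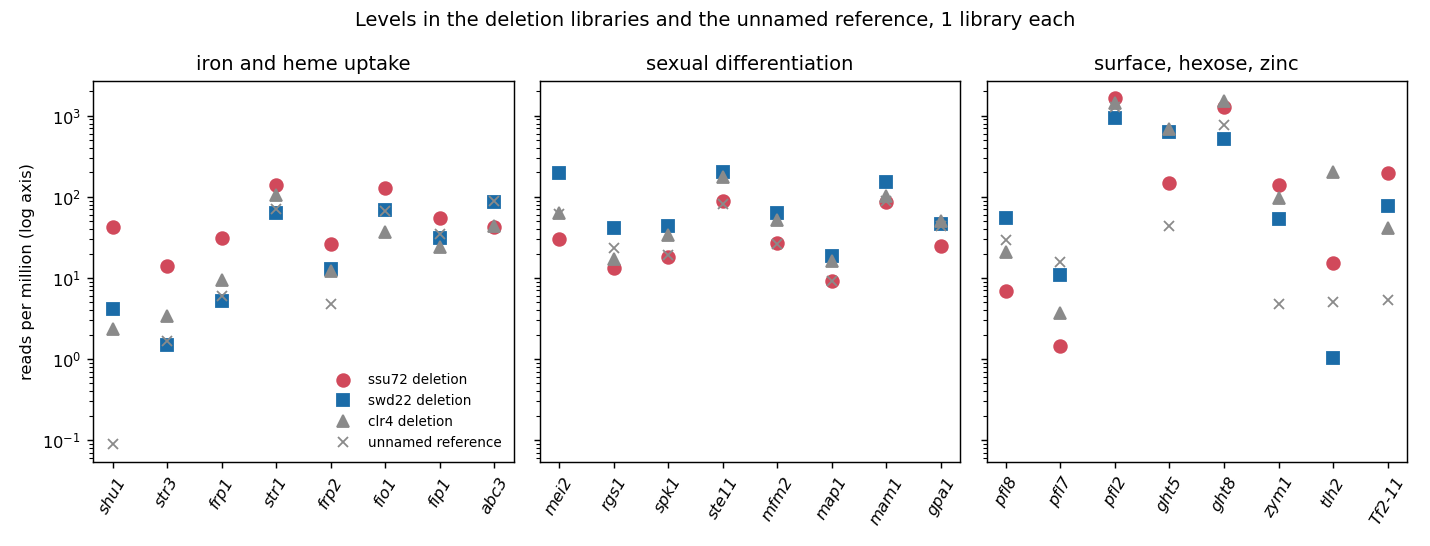
CPM, reads scaled to library size (log axis), of 24 genes in the ssu72 (red circles), swd22 (blue squares), clr4 (grey triangles) and unnamed reference (grey crosses) libraries, 1 library each. The red circle is the highest mark for shu1, str3 and frp1, and the blue square is the highest for mei2, ste11 and rgs1.

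Upstream sequence is printed for mei2, ste11 and spk1, whose windows hold the core letters TTCTTTG bound by Ste11, and for shu1, whose window holds GATAA, the core of GATA factors. The windows run 5' to 3' on the gene's strand, are from RefSeq's ASM294v3, and stop before both the RefSeq gene and the feature of the files. Capitals mark the motif on either strand. They lie at chrI:4515026-4515275 (minus strand, mei2), chrII:3983126-3983311 (plus, ste11), chrI:3001688-3001768 (minus, spk1) and chrI:86325-86528 (minus, shu1).
mei2: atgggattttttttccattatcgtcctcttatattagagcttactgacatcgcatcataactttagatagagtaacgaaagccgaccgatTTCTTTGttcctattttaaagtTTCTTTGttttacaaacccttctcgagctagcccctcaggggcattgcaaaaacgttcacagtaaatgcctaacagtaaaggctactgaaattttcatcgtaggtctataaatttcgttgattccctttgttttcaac
ste11: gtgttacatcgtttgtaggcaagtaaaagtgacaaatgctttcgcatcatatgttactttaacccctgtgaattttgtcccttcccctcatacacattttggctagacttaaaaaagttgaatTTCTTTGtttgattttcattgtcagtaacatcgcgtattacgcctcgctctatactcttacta
spk1: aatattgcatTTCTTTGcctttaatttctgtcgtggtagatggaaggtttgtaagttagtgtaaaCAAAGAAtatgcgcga
shu1: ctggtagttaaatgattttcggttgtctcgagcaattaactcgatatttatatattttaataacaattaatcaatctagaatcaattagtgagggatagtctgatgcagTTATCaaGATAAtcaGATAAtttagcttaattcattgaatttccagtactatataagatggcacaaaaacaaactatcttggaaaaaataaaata
The window of mei2 holds 2 copies of TTCTTTG, that of ste11 1, that of spk1 2 and that of shu1 3 copies of GATAA. Among the other mating genes 2-fold lower, mfm2 had no TTCTTTG in its window, map1 had it only inside the feature of the files, and the window of rgs1 lies wholly inside that feature. Over windows from 250 bases before to 50 after the RefSeq gene start, TTCTTTG on either strand occurred in 9.97% of 4455 measured coding features. It occurred in 10 of the 45 lower features with a window (22.2%), in 3 of 19 higher ones (15.8%) and in 15 of 37 members of the mating lists (40.5%). The 10 lower ones include ssu72, the gene deleted in that strain, and mei2, ste11, spk1, map1 and rgs1 from the mating lists. GATAA occurred in 59.3% of all windows, in 11 of 19 higher ones (57.9%) and in 11 of 14 on the iron list (78.6%). Neither str3 nor frp2 held it in its window, and frp1 and str1 held it only inside the feature of the files. The windows of fip1 and fio1, which overlap each other, each held 3 copies before the feature. A match is a description of the letters only, and the windows of several genes rest on RefSeq starts that lie inside the feature of the files.

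Cell-surface flocculins, the glycoproteins that let cells stick to each other, included some of the lowest values. They were listed together with their regulators, so the counts and median of this list do not describe flocculins alone. Of 16 measured members 2 (12.5%), both flocculin genes, were at least 2-fold lower in the ssu72 library. None was higher, against 1.09% lower and 0.476% higher among coding features (list median -0.23). Pfl8 had 166 reads in the ssu72 library and 1082 in the swd22 library (-2.99, -3.24 to -2.76), and pfl7 had 35 and 213 (-2.90, -3.46 to -2.38). The abundant pfl2 lay the other way at 0.80, with 39296 and 18414 reads. Of their regulators mbx2 lay at -0.38 and gsf1 at 0.07.

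Both flocculins 2-fold lower have an overlapping RNA on the opposite strand, and these 2 RNAs differed in opposite directions. SPNCRNA.293 overlaps pfl7 and held 14 reads in the ssu72 library and 634 in the swd22 library (-5.79, -6.67 to -5.03), lower than any other SPNCRNA feature. The feature named fta5-antisense-1 overlaps pfl8 and held 1984 and 549 reads (1.56, 1.43 to 1.70). So pfl7 and its partner were both lower in the ssu72 library, while pfl8 was lower and its partner higher. The library kit keeps the strand of the RNA, but the strand setting of the counting is not given in the sources used here, so reads of overlapping partners may not be fully kept apart.

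Among hexose transporters and glucose-repressed genes 1 of 21 was higher and 1 lower (4.76% each way, against 0.476% and 1.09% of coding features), and both are ght genes on chromosome III. The glucose transporter gene ght5 had 3543 reads in the ssu72 library and 12406 in the swd22 library (-2.10, -2.15 to -2.04), beside 15686 in the clr4 library and 1001 in the reference library. The transporter gene ght8 lies close to it and had 30540 and 10094 reads (1.31, 1.27 to 1.34), beside 34497 and 17494. The ssu72 library was thus lower than the swd22 library for ght5 and higher for ght8. The remaining family members ght1, ght2, ght3, ght4, ght6 and ght7 lay between -0.87 and -0.04, and the gluconeogenic gene fbp1 lay at -0.75.

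Other coding genes that led the higher side have scattered roles. The metallothionein gene zym1, whose product binds metal ions, had 3328 and 1042 reads (1.38, 1.28 to 1.49), and the predicted alcohol dehydrogenase gene adh8 had 4024 and 1066 (1.63, 1.53 to 1.72). The other 8 zinc and copper genes stayed under 2-fold, with the zinc transporter gene zrt1 at 0.36. SPAC2E1P3.05c, annotated as a fungal cellulose binding domain protein, had 8910 and 1553 reads (2.23, 2.15 to 2.31). The RNA processing gene mpn1 had 600 and 188 reads (1.38, 1.15 to 1.63), and the predicted esterase gene SPAPB1A11.02 had 192 and 51 (1.62, 1.17 to 2.10).

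Repeated families near the ends and in the genome can share reads, which makes their values uncertain. The telomere-linked helicase gene tlh2 had 370 reads in the ssu72 library and 20 in the swd22 library (3.92, 3.27 to 4.65), and the truncated telomeric helicase SPAC212.06c had 65 and 7 (2.92, 1.80 to 4.29). In the clr4 library these features held 4618 and 668 reads, far above both. Tlh1 held 0 reads in the ssu72 library and 1 in the swd22 library, below the minimum. The helicase list had 2 measured members of 5, and the other, SPBPB2B2.05, is annotated in the files as a peptidase family C26 protein; it had 32 and 68 reads (-1.38, -2.03 to -0.75). Of 13 Tf2 retrotransposons 4 were measured, with a median of 0.63, and Tf2-11 had 4740 and 1513 reads (1.36, 1.27 to 1.44).

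On the lower side the 3 lowest coding features after ssu72 are neighbours. SPAC186.05c, annotated as a homologue of human TMEM165, had 157 reads in the ssu72 library and 3543 in the swd22 library, 27.6-fold lower (-4.79, -5.03 to -4.56). SPAC186.04c, a truncated transmembrane channel, had 24 and 441 (-4.49, -5.15 to -3.90), and SPAC186.06, a predicted unfolded protein response protein, had 55 and 759 (-4.08, -4.50 to -3.68). In the clr4 library the 3 genes held 690 (SPAC186.04c), 5298 (SPAC186.05c) and 378 reads (SPAC186.06), and in the reference library 26, 445 and 17 in that order. The ssu72 library therefore resembled the reference library at this site in being low, while the swd22 and clr4 libraries were high.

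The remaining coding features that led the lower side were SPAC977.18 with 67 and 325 reads (-2.57), SPAC977.02 with 9 and 55 (-2.90), SPBPB2B2.18 with 14 and 77 (-2.75), fub2 with 119 and 454 (-2.22), ngl1 with 150 and 560 (-2.19) and mug14 with 229 and 716 (-1.94). The first of these is a conserved fungal protein gene, the next 2 belong to protein families or genes specific to fission yeasts, fub2 is a predicted proteasome regulator, ngl1 a peptide N-glycanase and mug14 an adducin. SPBP8B7.32, marked dubious in the files, had 1602 and 5964 reads (-2.19, -2.27 to -2.11). It overlaps SPNCRNA.1626 on the opposite strand, which had 13436 and 4329 reads (1.34, 1.29 to 1.39), the opposite direction. A list of genes for uptake and use of ammonium, amino acids and peptides had 17 measured members. Of these 2 (11.8%, against 1.09% of coding features) were lower, uga1 (-1.26) and isp5 (-1.02). Uga1 is annotated as an enzyme, a GABA transaminase, and isp5 as an amino acid permease. Isp5 falls under 2-fold, at -0.96, when differences are centred on the coding median.

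**Figure D3:**
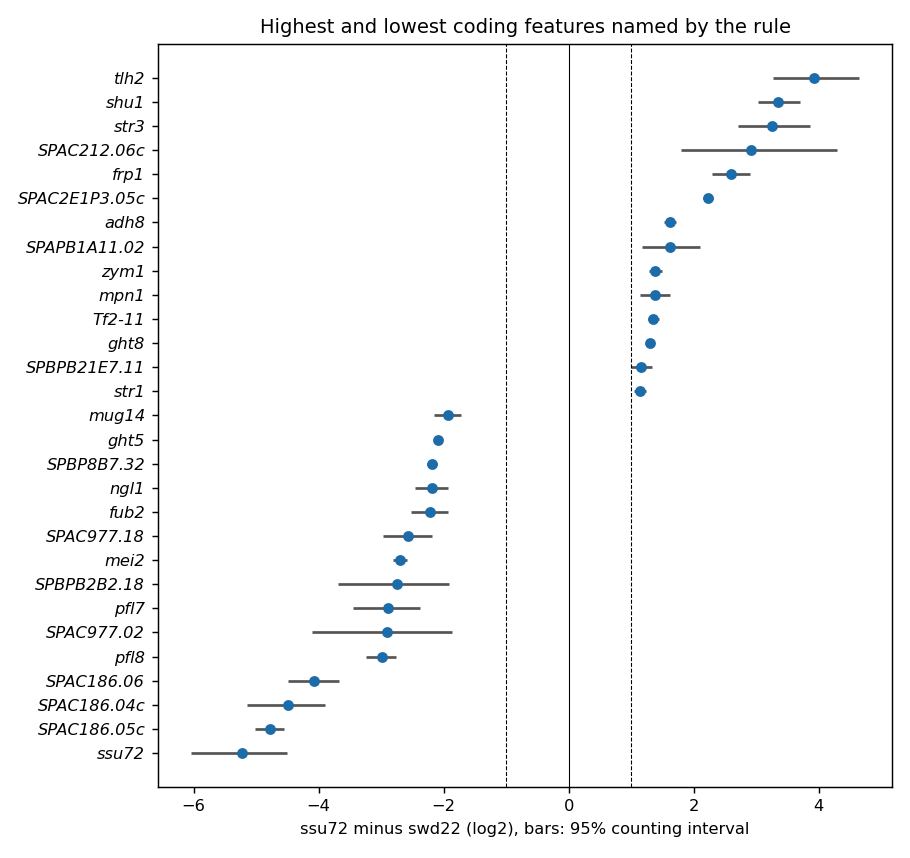
Difference between the ssu72 and swd22 libraries (log2, horizontal axis) with exact 95% counting intervals (bars) for 14 of the 15 highest and the 15 lowest coding features by the interval bound nearest to 0. All 14 of the upper group lie above the 2-fold line and the lower group reaches -5.22 at ssu72.

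Several of these features stand side by side. On the 3 chromosomes there were 15 runs of neighbouring measured features that were at least 2-fold apart in 1 direction, with 39 features in all, and 5 of the runs held at least 3 features. All 5 longer runs were lower in the ssu72 library. The first, on chromosome I (5538480 to 5546648), held SPAC186.04c, SPAC186.05c, SPAC186.06, SPNCRNA.310 and prl61. The second (chromosome I, 4510983 to 4518818) held mei2, SPNCRNA.993, omt3 and omt2, where omt3 had 307 and 2185 reads (-3.12, -3.30 to -2.95) and omt2, a predicted dehydratase gene, had 313 and 615 (-1.26). Apc14, which overlaps omt2 on the opposite strand, lay at -0.06.

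The third run (chromosome II, 80899 to 89029) held the predicted cysteine transporter gene SPBPB10D8.01 with 456 and 1204 reads (-1.69, -1.85 to -1.53), the predicted arylsulfatase gene SPBPB10D8.02c with 700 and 1200 (-1.07, -1.20 to -0.93), its antisense feature with 29 and 108 (-2.19) and SPBPB10D8.03 with 2 and 12. The fourth (chromosome II, 117892 to 127461) held pfl7, SPNCRNA.293 and abc3, and ends as a run of 3 where centring takes abc3 under 2-fold. In the wider stretch from alr2 to mug14 (107583 to 129742) 10 of 10 measured features lay below 0 and 6 were at least 2-fold lower. The fifth held 2 ribosomal RNA features and SPNCRNA.1299 near the right end of chromosome III. A pair that was higher joined shu1 and str3 on chromosome I (85566 to 90300).

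Features near chromosome ends were more often far apart in both directions. Of 45 measured coding features within 50 kb of an end of the reference chromosome 4 (8.89%) were higher and 7 (15.6%) lower. From 50 to 100 kb 3 of 99 (3.03%) were higher and 7 (7.07%) lower, and beyond 100 kb 17 of 4883 (0.348%) were higher and 40 (0.819%) lower. The median differences of these 3 zones were -0.07, 0.02 and -0.06, so the zones differed in spread rather than in their centre. Of the 43 measured features of any class within 100 kb of the left end of chromosome III none was 2-fold apart. Over all features the share was 2.57%, so none of 43 is near it. Coding features 2-fold apart had fewer reads than the rest, with a median over genes of 411 mean reads for the higher and 294 for the lower ones against 2050 for the others, and the part of depth in these counts was not tested.

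**Figure D4:**
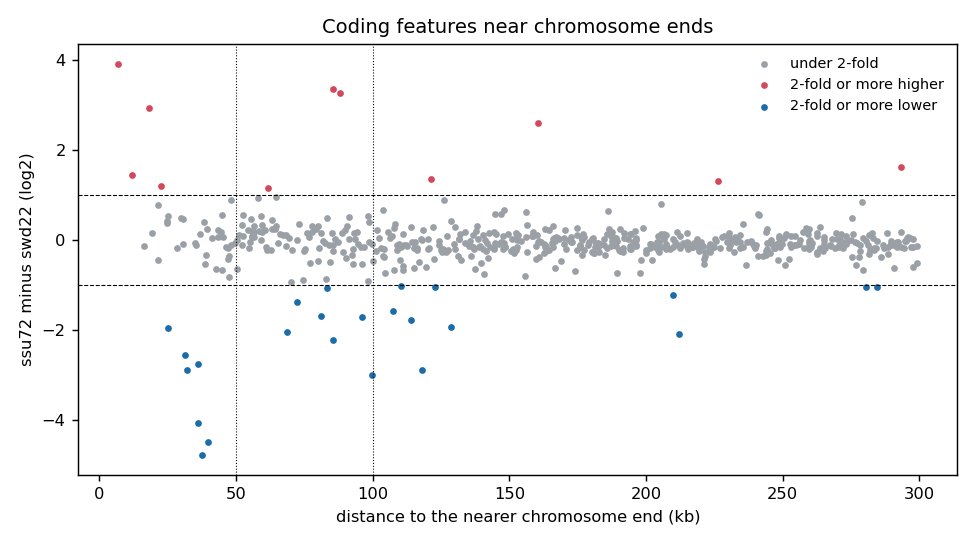
Difference between the ssu72 and swd22 libraries (log2) for coding features within 300 kb of a chromosome end, against the distance to the nearer end of the reference chromosome. Dotted lines mark 50 and 100 kb and dashed lines 2-fold. Red and blue points are most crowded within 130 kb of an end.

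Gene structure was compared in the same way. Of 2230 coding features that have no intron in RefSeq 14 (0.628%) were higher and 29 (1.30%) lower, and of 2225 with an intron 5 (0.225%) were higher and 16 (0.719%) lower. Of 2080 coding features without an overlapping feature on the opposite strand 18 (0.865%) were higher and 20 (0.962%) lower, and of 2947 with one 6 (0.204%) and 34 (1.15%). Of 1642 genes that lie under 500 bases downstream of a gene on the same strand 3 (0.183%) were higher and 8 (0.487%) lower. Of 2525 with a convergent neighbour under 500 bases away 4 (0.158%) were higher and 26 (1.03%) lower. Genes close behind a tandem neighbour were thus at or under the coding background of 0.476% and 1.09% in both directions. So were genes with a close convergent neighbour and genes with an intron.

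Antisense features stood slightly higher in the ssu72 library on the whole. Of 613 measured antisense features 16 (2.61%) were at least 2-fold higher in the ssu72 library and 4 (0.653%) lower. The shares over all features were 1.26% and 1.31%. The antisense median was 0.14 against -0.06 for coding features. The antisense feature inside SPBC887.02 had 1053 reads in the ssu72 library and 57 in the swd22 library (3.92, 3.53 to 4.33), beside 159 in the clr4 library and 85 in the reference library. The sense feature SPBC887.02, held 1635 and 1508 reads (-0.17). The antisense feature of pof14, an F-box protein gene, had 588 and 116 reads, 4.14-fold higher (interval 1.76 to 2.35 on the log2 scale), with pof14 itself at -0.14. The antisense features of meu17 (1699 and 526 reads) and SPAC26A3.17c (478 and 143 reads) lay at 1.40 and 1.45.

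The coding partners were under 2-fold apart in most cases. Of the 16 higher antisense features the sense partner was also at least 2-fold higher in 1 case (swd22), at least 2-fold lower in 1 (pfl8) and under 2-fold in the others. The partners had a median of -0.18, and 13 of 16 lay below 0. All coding features had a median of -0.06 and quartiles of -0.16 and 0.06, so most of them also lay below 0. Of the 4 lower antisense features 2 had a partner at least 2-fold lower, SPBPB10D8.02c and fub2. The antisense features of hop1 and abc3, at -0.74 and -0.81, were among the 5 lowest by interval bound but under 2-fold.

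SPNCRNA features were spread more widely. Of 569 measured ones 31 (5.45%) were higher and 15 (2.64%) lower, against 1.26% and 1.31% of all features. Their median was 0.07. Many of them rest on few reads: with at least 50 reads in the higher library 10 of 387 were higher and 3 lower. SPNCRNA.1141 had 194 and 69 reads (1.20, 0.80 to 1.62) and SPNCRNA.1224 had 339 and 133 (1.06, 0.77 to 1.36). SPNCRNA.1303 had 10 reads in the ssu72 library and 0 in the swd22 library, 2.73-fold higher when the swd22 count is set to a floor of 3 reads. Its counting interval starts lower, at 0.87 on the log2 scale, which is under 2-fold. SPNCRNA.1303 lies beside SPBPB21E7.11, which had 1164 and 425 reads (1.16). Features with more reads on the lower side were SPNCRNA.1318 with 306 and 578 reads (-1.21, -1.41 to -1.01) and SPNCRNA.1115 with 7275 and 11035 (-0.89, -0.93 to -0.85).

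Ribosomal RNA features were at least 2-fold lower in the ssu72 library in 6 of 6 cases, against 1.31% of all features, with a median of -2.53. The mitochondrial 15S and 21S features had 9725 against 19054 reads (-1.26, -1.30 to -1.23) and 13093 against 25516 (-1.25, -1.28 to -1.22). Nuclear features were further apart, with SPRRNA.52 at 191 and 1962 reads (-3.65, -3.87 to -3.44), SPRRNA.53 at 1 and 193, SPRRNA.12 at 3 and 41 and SPRRNA.49 at 12 and 26. The share of reads on ribosomal RNA was 0.096% and 0.238%, which is the same measurement, and ribosomal RNA copies share reads. In the clr4 and reference libraries that share was 0.0913% and 0.214%. So small a share can vary with how each library was made, and the part of library preparation in these differences was not tested. Mitochondrial messages were closer to level than the mitochondrial ribosomal RNAs: 8 measured ones ranged from -0.25 to 0.26 and 25 mitochondrial transfer RNAs had a median of -0.23 with none 2-fold apart.

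Other small RNAs were closer to level than ribosomal RNA. Nuclear transfer RNAs had a median of 0.37 over 72 features, against -0.04 for all features. Of these 6 (8.33%) were higher and none lower, against 1.26% and 1.31% of all features. All 6 had at most 49 reads in the higher library. No snoRNA (22 features, median -0.07) or snRNA (7 features, median 0.30) was 2-fold apart. The 3 highest by interval bound were snoR69 (863 and 457 reads, 0.63), snoR61 (2457 and 1372, 0.55) and snoR69b (5864 and 3423, 0.49).

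Cytosolic ribosomal protein genes lay slightly higher in the ssu72 library as a group. None of 141 was 2-fold apart, against 1.57% of coding features. Above 0 lay 136, and 138 lay above the coding median of -0.06. Their median was 0.20 with quartiles of 0.14 and 0.26, and all lay between -0.16 and 0.55. Meiotic transcripts that the protein Mmi1 removes in growing cells had a median of 0.24. Of 18, 14 lay above 0 and 15 above the coding median. Meu32 was 2-fold apart at 300 and 113 reads (1.12, 0.80 to 1.44). Of 99 mug genes 1 was higher (mug125, 446 and 168 reads, 1.12) and 1 lower (mug14), 1.01% each way and thus near the coding shares of 0.476% and 1.09%. Chaperones and core stress genes had no member 2-fold apart, against 1.57% of coding features, with medians of 0.14 over 16 and 0.10 over 30 genes.

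**Figure D5:**
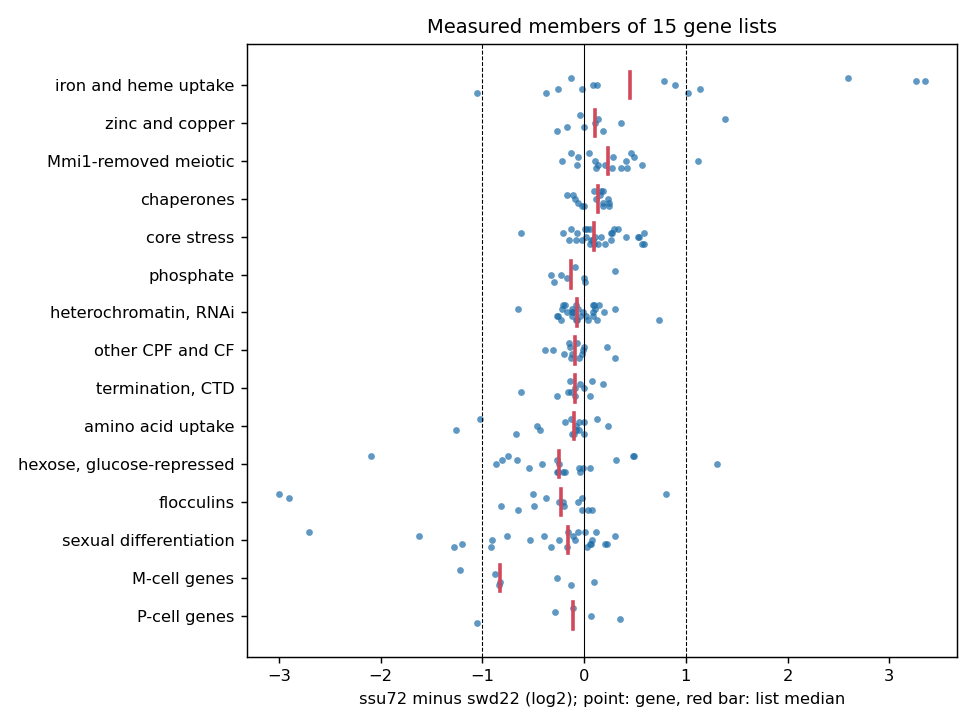
Difference between the ssu72 and swd22 libraries (log2) for the measured members of 15 gene lists. Each point is a gene, the red bar is the list median and dashed lines mark 2-fold. Iron and heme uptake genes reach 3.35, sexual differentiation genes reach -2.70 and flocculins -2.99, while heterochromatin, phosphate and other CPF genes stay inside the 2-fold lines.

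Groups tied to the question in the series title were level between the deletions, as were most coding RNAs. None of 30 genes for heterochromatin, RNA interference and histone deacetylation factors was 2-fold apart, with a median of -0.07 and a range of -0.65 to 0.73. None of 17 genes for elimination of meiotic RNA and the nuclear exosome was 2-fold apart, and all 17 lay within 1.25-fold. Of all coding features 1.57% were 2-fold apart and 87.8% lay within 1.25-fold, so none in lists of 30 and 17 is near the coding share. Phosphate genes, some of which are repressed by transcription of an upstream noncoding RNA in fission yeast, were level too. The acid phosphatase gene pho1 had 5367 and 3554 reads (0.30, 0.24 to 0.37), pho84 4828 and 3924 (0.01, -0.05 to 0.07) and tgp1 981 and 801 (0.00, -0.13 to 0.14). In the clr4 and reference libraries pho1 held 44029 and 13054 reads, pho84 21256 and 21093, and tgp1 1832 and 480. The clr4 library was thus above both CPF deletions for all 3 genes, and the reference library was above them for pho1 and pho84 and below them for tgp1.

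Lists without a member 2-fold apart also included G1/S genes (22, median -0.17), cell separation genes (25, -0.08), histone genes (11, -0.02), sulfur and methionine genes (13, 0.03), sterol and fatty acid genes (21, -0.03), thiamine genes (9, 0.13), wtf genes (20, 0.01), named U, RNase P and SRP RNAs (10, 0.19) and genes often used as strain markers (12, -0.13). Of all coding features 1.57% were 2-fold apart, so lists of this size without one are near that share. Of 19 meu genes 1 (5.26%, against 0.476% of coding features) was higher, meu32.

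The clr4 library was used to see which of the 2 deletions another mutant lay nearer to. Of the 55 coding features lower in the ssu72 library the clr4 level was nearer to swd22 for 39 and nearer to ssu72 for 16. Of the 24 higher ones it was nearer to swd22 for 9 and to ssu72 for 15. The unnamed reference library was nearer to swd22 for 27 and to ssu72 for 28 of the lower features, and for 19 and 5 of the higher ones. These counts describe single libraries, and a feature chosen for a wide gap between 2 libraries leaves any further library nearer to one of them by construction.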

How the data were processed

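Total RNA was taken with the MasterPure yeast kit, made into libraries with the strand-keeping ScriptSeq v2 kit and sequenced on a NextSeq 500, per the labels' protocols. The submitters' processing notes name Trimmomatic and STAR. Not given in the sources used here are the genome build, the counting program, its strand setting and the reference library. For 7015 features the authors deposited a p-value beside a log2 fold change, per the file headers, and the values show these to be ratios to 1 shared reference library. The deposited p-values carry no biological spread and served only to recover reads.

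Ratio and p-value together fix both read counts under a random sampling model. Counts of 6565 features were solved so and those of 88 from the ratios alone, each within 0.002 of a whole number, and 362 features have no ratio in any file. Recovery was tested on simulated data made with the same model, which cannot test whether the deposited values follow it. Where the reference holds 0 reads, a ratio of 0 leaves a count open between 0 and 4, which touched 2 measured features (SPNCRNA.267 and SPNCRNA.313 in the swd22 library). They count as higher but are given no fold.

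A count of 0 was set to 0.5 reads for the log2 difference. A feature was measured with at least 10 reads in the higher library and counted at 2-fold. Intervals are Clopper-Pearson intervals (scipy 1.17.1), and without molecular identifiers a read is not an independent molecule. The 15 highest and 15 lowest coding features, 5 and 5 SPNCRNA and antisense features, and 3 and 3 small RNAs were named by the interval bound nearest to 0, with the CPF phosphatase module, up to 3 members per list and direction, and the 3 longest runs. A coding feature named by this rule is not reported here. Other named features were chosen after their values were seen. Members and lists were chosen with earlier results of these data known. Positions are those of the files, windows those of RefSeq ASM294v3. Of 6333 nuclear features other than antisense ones, 5627 (88.9%) overlapped a RefSeq gene of the same name.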

Additional observations from a re-analysis of the deposited data

How the results depend on the processing

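No paired analysis was possible because each deletion has 1 library, and for the same reason no replicate could be left out. With 2-fold required at the interval bound nearest to 0, 27 features were higher and 48 lower (coding 14 and 34). With at least 50 reads in the higher library 49 were higher. Centring on the coding median (a shift of -0.06) gave 93 higher and 73 lower, and of coding features 27 and 46, and a size factor from features with 100 or more reads (-0.05) gave 92 and 74. Of 165 calls 11 were lost by the first (among named features map1, abc3 and isp5) and 10 by the second (abc3 and isp5). With no filter on reads 120 were higher and 122 lower. The remaining alternatives (10 reads in both libraries, 1 read added, the plain difference of the deposited values) kept each count within 1.5 times. The median of the 2 measured telomere helicase genes is not stable: it was 1.27, and -1.29 with no filter, where 3 are measured. The last 2 alternatives were chosen after seeing the data. Setting open counts to 4 reads changed no count. Leaving out near-identical copies, ribosomal RNA and features within 50 kb of an end left 70 higher and 68 lower, and left that list with 1 gene at -1.38. Of SPNCRNA features 2.58% were higher with at least 50 reads against 5.45% of all measured ones, and the part of depth in this was not tested.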
